A study of Mus musculus with 6 samples.

Results

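Checkpoint and costimulatory ligands are the cell-surface proteins through which a myeloid cell or a tumor cell speaks to a T cell. The rule for the 9 genes examined here lists them by name and uses no measured value: Cd274 (PD-L1), Pdcd1lg2 (PD-L2), Cd80, Cd86, Vsir (VISTA), Cd276 (B7-H3), Pvr (CD155), Nectin2 (CD112) and Icosl (ICOS ligand). They are 9 of the 22377 genes in the count table, all were measured, and all were among the 13884 genes that passed the filter on low counts and were tested.

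The study asked what NPM1, a nucleolar and chromatin protein, does in tumor-associated macrophages (TAMs), and compared RNA from Lewis lung carcinoma (LLC) tumors grown under the skin of Npm1+/+ mice (3 libraries, labelled wt) and Npm1+/- mice (3 libraries, labelled ko in their names and knockdown in their treatment field). According to its methods the mice were males and females aged 6 to 8 weeks at implantation, and TAMs were sorted by the surface antigens that Ptprc (CD45), Itgam (CD11b) and Adgre1 encode. The sample labels instead describe tumor tissue extracted with TRIzol, and name neither an age nor a genotype beyond wt and ko. The deletion of 1 Npm1 allele is carried by every host cell, not by macrophages alone, and the implanted carcinoma cells are the same in both groups; the background strain of these mice is not given in the sources used here. Mice with implanted tumors were killed 2 weeks after injection by the methods, which do not single out these libraries. The legend of an expression heatmap of these TAMs names 2 individual mice, which differs from the 3 libraries a group used here, and the labels do not tie libraries to mice. The p-values therefore measure the spread between these libraries only.

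Libraries held between 36550775 and 38147320 counts, so that 3 counts corresponded to between 0.0716 and 0.0846 CPM (the count of a gene relative to the library total, scaled by TMM, a method that sets libraries to a common composition). Npm1, the targeted gene, was at 142, 380 and 381 CPM in the wt libraries and at 441, 499 and 343 CPM in those labelled ko, so its RNA was not lower under the ko label (log2 fold change 0.51, SE 0.36, edgeR quasi-likelihood adjusted p = 0.436). Ccrl2, the chemokine receptor-like gene the study followed, was at 831, 1494 and 1162 against 665, 471 and 783 CPM, groups that did not overlap (log2 fold change -0.86, adjusted p = 0.328). The library wt 1 stood apart from the other 5: on the first principal component, which held 68.0% of the variance, it was at -108 while the others lay between -4.54 and 52.0. Estimates without wt 1 are therefore given for the ligands and for their ratios. Direction is always ko label minus wt.

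T cells need a signal from their antigen receptor and a second, costimulatory signal to be activated. CD80 and CD86 give that second signal by binding CD28, and withhold it when CTLA-4 takes them instead; ICOS ligand extends help to activated T cells through ICOS. PD-L1 and PD-L2 bind PD-1 and dampen T cells, VISTA restrains resting and activated T cells and is carried mainly by myeloid cells, and CD155 and CD112 are nectin-family proteins that activate through CD226 or inhibit through TIGIT and, for CD112, PVRIG. In tumors, PD-L1 on macrophages is a known brake on T cells, induced above all by interferon-gamma.

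Levels of different genes were compared per length, as FPKM (fragments scaled to the length of the gene and to the total of the library). The 9 ligands fell into a set of 6 that was well expressed and a set of 3 at much lower levels. In wt libraries Cd274 led with 106 FPKM ± 30.3 (SD, n = 3), followed by Vsir with 87.2 ± 18.8, Cd80 with 62.6 ± 12.7, Pvr with 62.0 ± 10.3, Cd86 with 57.1 ± 9.80 and Icosl with 27.5 ± 4.26. Pdcd1lg2 (2.81 ± 0.473), Cd276 (2.21 ± 0.816) and Nectin2 (1.02 ± 0.104) were far lower. By mean FPKM over the 6 libraries Cd274 ranked 534 among the 22377 genes and Nectin2 ranked 10083. The ranges of Cd274 and Vsir overlapped, as did those of Cd80, Pvr and Cd86 among themselves and of Pdcd1lg2 and Cd276; the other steps between neighbours did not overlap.

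In libraries labelled ko the order differed most in the place of Vsir. Cd86 also stood above Pvr, with ranges that did not overlap, and Cd276 above Pdcd1lg2, with overlap. Cd274 was again first, with 137 FPKM ± 11.5, then Cd80 with 69.9 ± 12.6, Cd86 with 65.5 ± 2.02, Pvr with 57.3 ± 3.47, Vsir with 50.4 ± 10.9 and Icosl with 21.5 ± 1.02. Vsir thus moved from the second to the fifth place, although its range still overlapped that of its neighbour Pvr. The 3 low genes kept to the bottom, with Cd276 at 2.93 ± 0.880, Pdcd1lg2 at 2.67 ± 0.289 and Nectin2 at 1.10 ± 0.219.

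**Figure D1:**
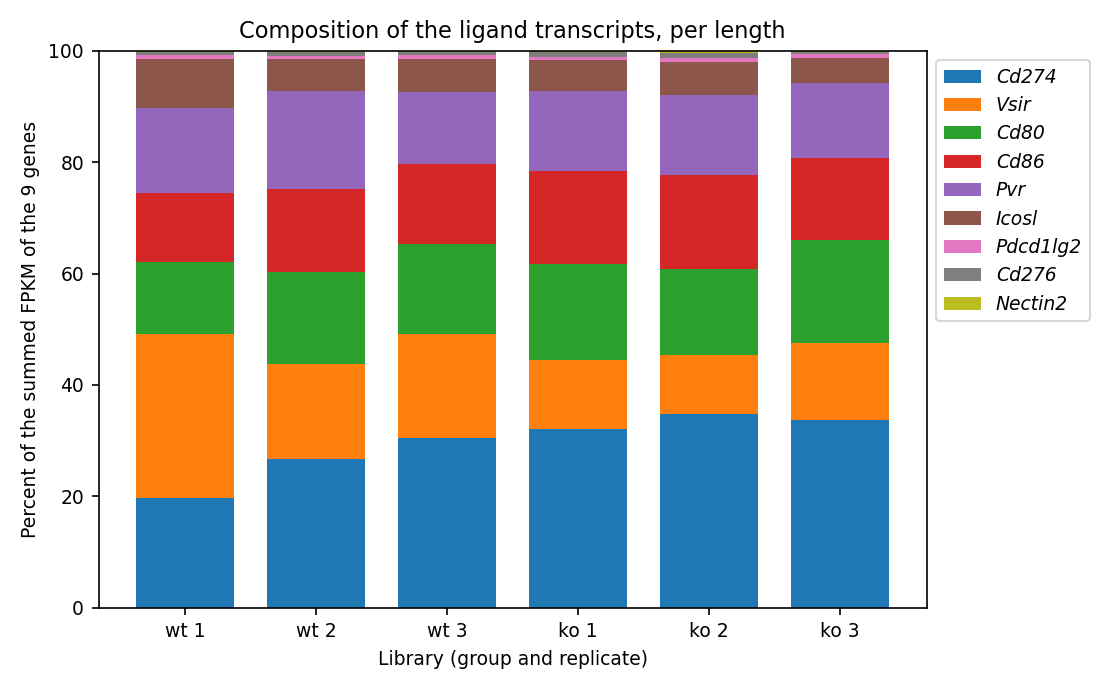
Share of the summed FPKM of the 9 ligands held by each ligand, in percent (vertical axis, from 0), for the 3 wt and the 3 ko-labelled libraries (horizontal axis). Vsir held 29.4%, 17.2% and 18.6% in wt and 12.4%, 10.6% and 13.8% under the ko label, while Cd274 held 19.7%, 26.6% and 30.5% against 32.1%, 34.8% and 33.7%.

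The make-up of the ligand pool does not depend on how libraries are scaled to each other, since it is a share within a library. The 9 genes summed to between 369 and 434 FPKM in wt and between 373 and 445 FPKM under the ko label, so the totals overlapped. Vsir held 29.4%, 17.2% and 18.6% of that sum in wt 1 to 3 and 12.4%, 10.6% and 13.8% in ko 1 to 3, lower in every ko-labelled library than in any wt library. Cd274 went the other way, with 19.7%, 26.6% and 30.5% against 32.1%, 34.8% and 33.7%. For both shares the exact two-sided permutation test gave p = 0.1, the smallest value that 3 against 3 libraries allow. The other 7 shares overlapped between the groups, that of Icosl included (8.77%, 5.79% and 5.93% against 5.45%, 5.93% and 4.57%). Shares within 1 sum are tied to each other, so the 2 differences are not independent.

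**Figure D2:**
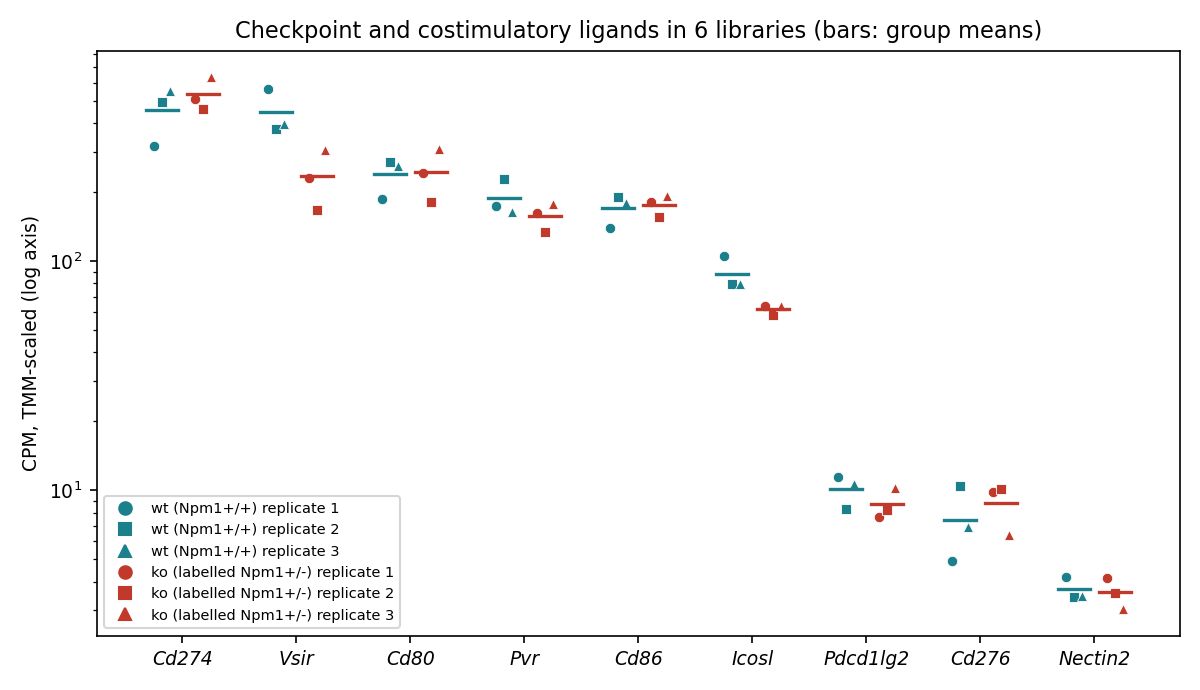
CPM (TMM-scaled) of the 9 ligands in each library on a log axis, with wt and ko-labelled libraries as points and the group mean as a bar. Vsir and Icosl are the 2 genes whose groups do not overlap, and values run from 3.04 CPM for Nectin2 to 634 CPM for Cd274, both in ko 3.

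In the comparison of levels, no ligand passed an adjusted p of 0.05 in edgeR, where the share of all tested genes called was likewise 0% (0 of 13884 genes; 958 were higher and 1154 lower at an unadjusted p under 0.05). Of the 9 ligands, 4 had a positive and 5 a negative estimate, with a median log2 fold change of -0.04 against 0.02 over all tested genes. Vsir and Icosl were lower at an unadjusted p under 0.05, and 8.31% of all genes were. The same 2 genes had groups that did not overlap, both lower, beside 12.6% of all genes that were lower without overlap and 13.3% that were higher; no ligand was higher without overlap. With either direction counted, 2 of 9 ligands stood beside 25.9% of all genes. The count of ligands was 3 without wt 2 (43.9% of all genes), 4 without ko 3 (49.8%) and 6 without both wt 1 and ko 3 (57.8%), so the share of all genes grew as libraries were left out. On FPKM it was 3 (25.4%) and scaled to macrophage markers, as described further on, 4 (37%). DESeq2 on the same 6 libraries called none of the 9, and 0.263% of its tested genes. The estimates by ligand are drawn in the plot of fold changes.

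**Figure D3:**
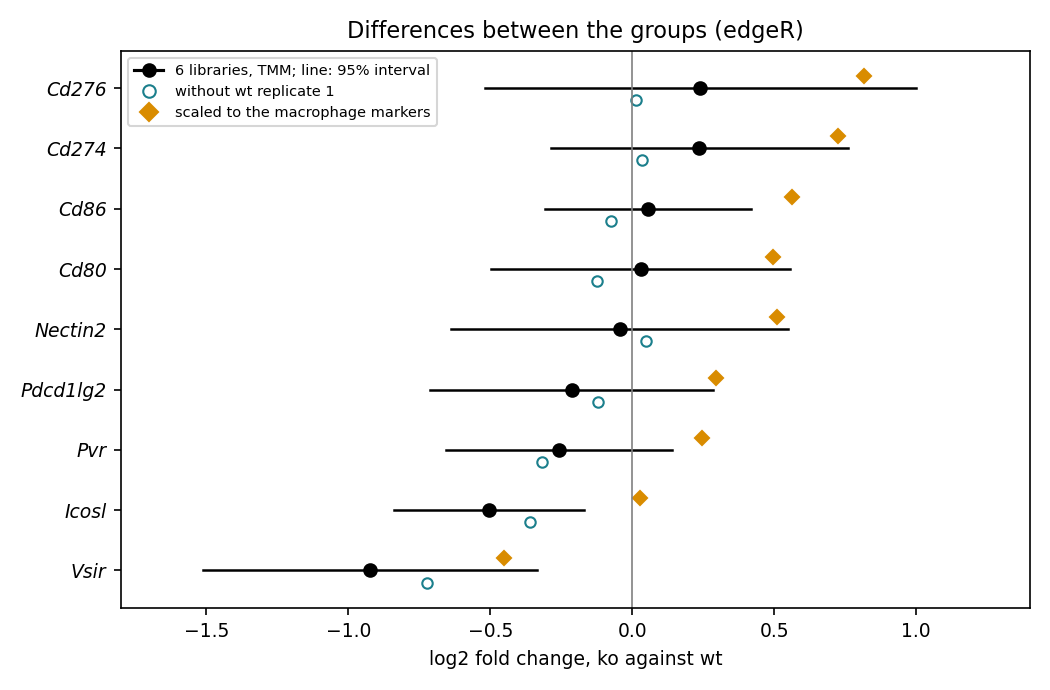
Log2 fold change of each ligand, ko label against wt (horizontal axis), from edgeR on the 6 libraries with its 95% interval, beside the estimates without wt 1 and with libraries scaled to the macrophage markers. The intervals of Vsir (-1.51 to -0.34) and Icosl (-0.84 to -0.17) lie below 0 before adjustment over all genes, and the other 7 include 0.

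Vsir encodes VISTA, and lies on the plus strand of chromosome 10 (GRCm38, chr10:60346851-60372684). It was at 563, 377 and 399 CPM in wt 1 to 3 and at 232, 168 and 307 CPM in ko 1 to 3. Every ko-labelled library was under every wt library, with wt 1 the highest and ko 2 the lowest. Means were 446 ± 102 and 235 ± 69.7 CPM (SD, n = 3), a log2 fold change of -0.92 (SE 0.25, 95% interval -1.51 to -0.34), or 0.527 of the wt level. The unadjusted p of 0.00707 ranked 200 among all tested genes and became 0.328 after Benjamini-Hochberg adjustment in edgeR. Without wt 1 the log2 fold change was -0.72 and the groups still did not overlap, as was so for 15.2% of genes in the lower direction. Without wt 1 and ko 3, a choice made with earlier results known, DESeq2 called Vsir at an adjusted p of 5.75e-05 (log2 fold change -0.998), the only ligand it called in a comparison where 6.21% of genes were called lower; edgeR on the same 4 libraries gave an adjusted p of 0.101. Vsir lies inside the gene Cdh23 of the opposite strand, which had between 5 and 26 counts a library, against at least 7020 for Vsir; whether counting used strand is not given in the sources used here.

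Icosl, on the plus strand of the same chromosome 17696617 bp farther on (chr10:78069302-78083913), was at 105, 79.4 and 79.2 CPM in wt and at 63.8, 58.5 and 63.6 CPM under the ko label. The 3 ko-labelled values lay close together and under all wt values, and wt 1 was again the highest. Means were 87.9 ± 14.9 and 62.0 ± 3.05 CPM, with a log2 fold change of -0.50 (SE 0.14, 95% interval -0.84 to -0.17), or 0.705 of the wt level. The unadjusted p was 0.0088 and the adjusted p 0.328 in edgeR, and without wt 1 the log2 fold change was -0.36 (adjusted p = 0.406), again with no overlap. Over the 6 libraries log2 CPM of Vsir and Icosl had a Pearson r of 0.93, the highest among pairs of the 9 genes, given as a description of libraries that share their depth and group.

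The stretch just before the annotated start is shown for Vsir and Icosl, the 2 genes without overlap, and for Cd274, the gene whose share went the other way. Sequences are from RefSeq on GRCm38.p6, 5' to 3' on the gene's strand, with any base inside a GENCODE exon left off. The 4 motifs below were searched on both strands and are in capitals where found: TTCNNNGAA (the STAT type), GAAANNGAA (the interferon-response type), GGGCGG (the GC box) and GGAAGT (the ETS type). The Vsir window is chr10:60346601-60346850, that of Icosl is chr10:78069118-78069301 (184 bases, since the rest is exon), and that of Cd274 is chr19:29367188-29367437.
Vsir: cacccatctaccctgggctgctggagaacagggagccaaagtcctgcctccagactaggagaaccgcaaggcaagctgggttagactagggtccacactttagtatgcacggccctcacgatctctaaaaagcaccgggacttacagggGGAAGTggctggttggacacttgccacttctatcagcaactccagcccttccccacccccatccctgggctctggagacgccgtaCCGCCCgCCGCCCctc
Icosl: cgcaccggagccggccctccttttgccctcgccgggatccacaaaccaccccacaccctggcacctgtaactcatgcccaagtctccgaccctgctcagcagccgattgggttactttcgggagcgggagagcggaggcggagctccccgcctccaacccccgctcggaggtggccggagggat
Cd274: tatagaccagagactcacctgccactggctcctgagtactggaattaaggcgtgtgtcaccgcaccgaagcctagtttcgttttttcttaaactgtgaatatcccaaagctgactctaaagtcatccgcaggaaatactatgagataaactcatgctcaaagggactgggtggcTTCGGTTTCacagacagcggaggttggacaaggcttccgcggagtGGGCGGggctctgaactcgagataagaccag

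Vsir held 2 GC boxes next to each other at the 3' end and 1 ETS-type match, and Cd274 held 1 interferon-response match, on the minus strand, and 1 GC box. Icosl held none of the 4, but had the highest GC content of the 3 (67.9%, against 60.4% in Vsir and 50.4% in Cd274) and 15 CpG pairs in its shorter window. None of the 3 held TTCNNNGAA. Of 32851 mouse promoters, 7.13% had a GAAANNGAA match, 32.7% a GGGCGG match, 19.7% a GGAAGT match and 7.02% a TTCNNNGAA match in 250 bases; in 184 bases the shares were 5.41%, 21.7%, 13.3% and 5.34%. A match is a run of letters and not a measured binding site. Promoters were matched for 7 of the 9 genes, all but Cd86 and Pvr, and 6 of the 7 had bases outside an exon to search, since the Cd276 window began inside one.

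Macrophage markers, like Vsir and Icosl, had lower estimates under the ko label. The 12 macrophage markers summed to between 21346 and 26616 CPM in wt and between 12888 and 21850 CPM under the ko label, overlapping through ko 3. Lyz2 and Cd14 had the highest mean levels of the list (9455 and 5473 CPM) and weigh most in that sum. The mean log2 CPM of the list ran from 8.93 to 9.04 in wt and from 8.12 to 8.84 under the ko label. Those means did not overlap (exact two-sided permutation p = 0.1, the smallest that 3 against 3 libraries allow). All 12 had a negative estimate and 7 were lower without overlap (median log2 fold change -0.53), none at an adjusted p under 0.05, and none was at 0 in any library. Among all tested genes, 12.6% were lower without overlap. Csf1r, the receptor for the macrophage growth factor CSF-1, was at 1612, 1061 and 1042 against 732, 547 and 938 CPM. Every marker of the list was lowest in ko 2, as was Vsir, but their highest library differed. It was wt 1, as for Vsir, in Csf1r, Adgre1, Cd68 and Lyz2. It was wt 2 in Itgam, Fcgr1, C1qc and Cd14, wt 3 in Ptprc, C1qa and C1qb, and ko 3 in Mertk. Csf3r, Cxcr2 and Retnlg of the neutrophil list were also highest in wt 1 and lowest in ko 2, while the rest of that list peaked in wt 2 or wt 3. Ptprc (CD45), carried by all leukocytes, was at 957, 972 and 1393 against 1001, 928 and 1189 CPM (log2 fold change -0.09). In bulk RNA, fewer cells of a type and less RNA per cell cannot be told apart.

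**Figure D4:**
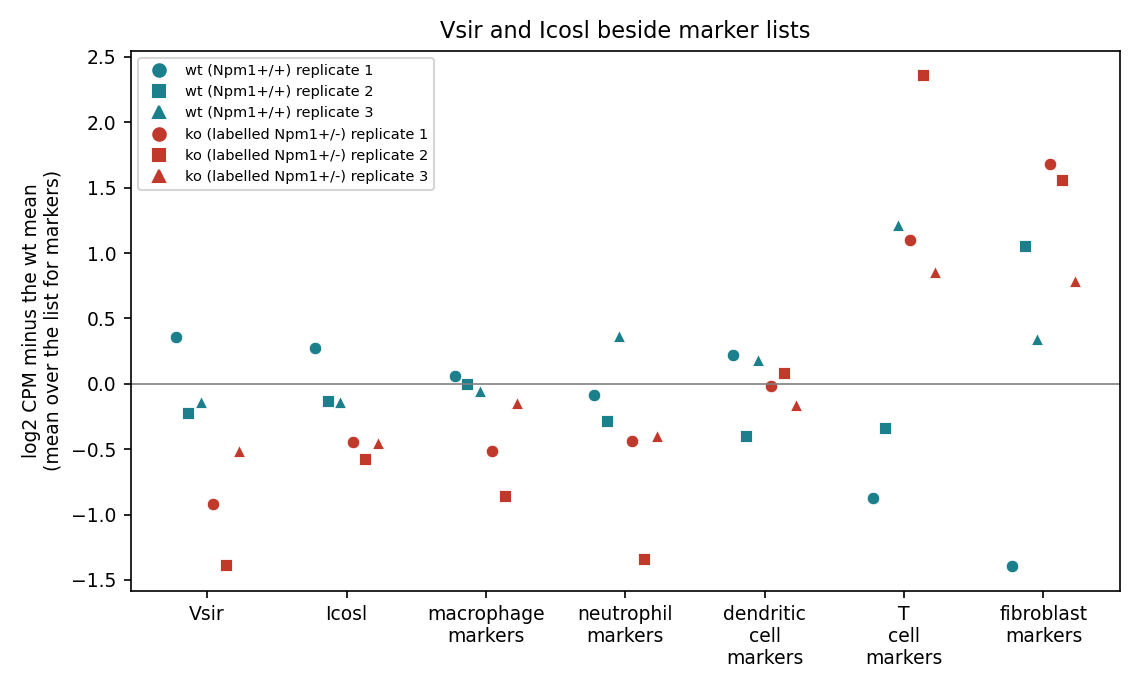
Log2 CPM of Vsir and Icosl, and mean log2 CPM of marker lists, in each library as the difference from the wt mean (vertical axis, log2), wt and ko-labelled libraries side by side. The difference of group means was -0.94 for Vsir, -0.49 for Icosl, -0.51 for the macrophage list, -0.73 for the neutrophil list, -0.04 for the dendritic cell list, 1.44 for the T cell list and 1.34 for the fibroblast list.

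With libraries scaled to the 12 macrophage markers in place of TMM, a scaling added after seeing the data that puts the median of all genes at 0.56, the estimate was -0.45 for Vsir (log2 scale, edgeR adjusted p = 0.126) and 0.03 for Icosl (adjusted p = 0.933). Vsir thus stayed lower per macrophage marker without overlap, while Icosl was level with the markers. On that scale Cd274 (0.73), Cd80 (0.50) and Cd86 (0.56) were higher without overlap, beside that median of all genes of 0.56.

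Lists of other cells had values as follows, none with a gene past the test. The 10 neutrophil markers summed to between 1893 and 2120 CPM in wt and between 839 and 1613 CPM under the ko label. Of the 9 tested neutrophil markers, 5 were lower without overlap, beside 12.6% of all tested genes. For their mean log2 CPM the exact two-sided permutation p was 0.1. The T cell list ran from 45.3 to 162 CPM in wt and from 129 to 367 CPM under the ko label, with overlap, and all 11 tested genes had a positive estimate (exact two-sided permutation p = 0.3 for the mean log2 CPM). Fibroblast markers ran from 46.9 to 540 CPM against 405 to 779 CPM, again with overlap, and 11 of 12 estimates were positive (exact two-sided permutation p = 0.2). The sums of dendritic cell markers overlapped (374 to 569 against 500.04 to 595 CPM). Of these 12 markers, 2 were higher and 0 lower without overlap, beside 13.3% and 12.6% of all tested genes. Sums also overlapped for markers of B cells (9.02 to 52.2 against 18.2 to 77.8 CPM), carcinoma or epithelial cells (36.7 to 138 against 130 to 192 CPM) and endothelial cells (34.5 to 43.2 against 32.9 to 36.9 CPM). The part of these cells in the ligand levels was not tested.

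The ligands of PD-1 are neighbours on chromosome 19, with Cd274 at chr19:29367455-29388095 and Pdcd1lg2 at chr19:29410919-29471161, both on the plus strand and 22823 bp apart. Cd274 was at 319, 494 and 551 CPM in wt and at 509, 463 and 634 CPM under the ko label. The groups overlapped, with wt 1 by far the lowest library. The log2 fold change was 0.24 (SE 0.22, 95% interval -0.29 to 0.76, adjusted p = 0.546), and 0.03 without wt 1. Pdcd1lg2 was at 11.4, 8.29 and 10.6 against 7.66, 8.19 and 10.3 CPM, with overlap and a log2 fold change of -0.21 (SE 0.21, 95% interval -0.71 to 0.28, adjusted p = 0.566), and -0.12 without wt 1. The ratio of its counts to those of Cd274, not corrected for length, was between 0.0151 and 0.0357. Wt 1 had the highest ratio, and the difference in log2 ratio was -0.47 (exact two-sided permutation p = 0.2, 0.6 after adjustment over 4 ratios), but -0.14 without wt 1.

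Cd80 and Cd86, the ligands of CD28 and CTLA-4, are both on chromosome 16, on opposite strands and 1789479 bp apart (Cd80 at chr16:38455561-38496335, Cd86 at chr16:36603869-36666081). Cd80 was at 187, 272 and 260 CPM in wt and at 243, 181 and 310 CPM under the ko label, where ko 2 was lowest and ko 3 highest of all 6. Its log2 fold change was 0.03 (SE 0.23, 95% interval -0.50 to 0.56, adjusted p = 0.946). Cd86, which the study used as a marker of M1-type macrophages, was at 139, 191 and 180 against 182, 156 and 192 CPM. Its log2 fold change was 0.06 (SE 0.16, 95% interval -0.31 to 0.42, adjusted p = 0.846), and wt 1 was the lowest library. On FPKM the Cd86 groups did not overlap by a narrow margin, at 45.8 to 63.1 FPKM in wt and 63.4 to 67.4 FPKM under the ko label. FPKM is not scaled by TMM, and the median log2 fold change of all tested genes was 0.09 on log2(FPKM + 1), against 0.02 in edgeR. The edgeR estimates of both genes were below 0 without wt 1, at -0.12 for Cd80 and -0.07 for Cd86. Cd80 counts were 1.35, 1.42 and 1.45 times those of Cd86 in wt, and 1.34, 1.16 and 1.61 times under the ko label (difference in log2 ratio -0.05, exact two-sided permutation p = 0.7 before and after adjustment), and the difference was -0.08 without wt 1.

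Cd274 was set against Cd86 as an inhibitory and an activating ligand; which cells carried each transcript was not tested. The ratio of their counts was 2.30, 2.58 and 3.07 in wt and 2.80, 2.96 and 3.30 under the ko label. The ranges overlapped, and the difference in log2 ratio was 0.20 (exact two-sided permutation p = 0.3, adjusted p = 0.6). It was 0.10 without wt 1 and between 0.13 and 0.31 with another library left out, and 0.035 without both wt 1 and ko 3. The intervals of the fitted fold changes leave room for a Cd86 level between 0.808 and 1.34 of wt and a Cd274 level between 0.819 and 1.69 of wt.

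Cd276 encodes B7-H3, a B7-family protein found on fibroblasts and many carcinoma cells (minus strand, chr9:58524298-58555437). It was at 4.92, 10.5 and 6.90 CPM in wt and at 9.84, 10.1 and 6.40 CPM under the ko label. The 3 highest libraries were wt 2, ko 1 and ko 2, which are also the 3 with the highest fibroblast-marker sums (540, 779 and 678 CPM) and the highest sums of carcinoma or epithelial markers (138, 192 and 184 CPM). Most of each sum was 1 gene, Col3a1 (426, 604 and 474 CPM) and Krt8 (117, 171 and 165 CPM). By mean log2 CPM the same 3 libraries were highest for the fibroblast list. For the carcinoma or epithelial list they were not, since ko 3 (2.17) was above wt 2 (2.15). Cdh1 of that list was highest in wt 1 (24.3 CPM) and lowest in ko 2 (9.43 CPM). The part of either cell type in the Cd276 level was not tested. The log2 fold change was 0.24 (SE 0.32, 95% interval -0.52 to 0.998, adjusted p = 0.674), 0.01 without wt 1 and 0.57 without wt 2.

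Pvr and Nectin2 are both on the minus strand of chromosome 7, 153094 bp apart (Pvr at chr7:19903578-19921160, Nectin2 at chr7:19716644-19750483), and share receptors. Pvr was at 174, 229 and 165 CPM in wt and at 162, 134 and 178 CPM under the ko label, with overlap and a log2 fold change of -0.26 (SE 0.17, 95% interval -0.66 to 0.14, adjusted p = 0.413). It was -0.32 without wt 1 and -0.10 without wt 2. Nectin2 was at 4.19, 3.44 and 3.48 against 4.15, 3.58 and 3.04 CPM, with a log2 fold change of -0.04 (SE 0.25, 95% interval -0.64 to 0.55, adjusted p = 0.927), and 0.05 without wt 1. Pvr counts were between 41.5 and 66.5 times those of Nectin2 in wt and between 37.5 and 58.5 times under the ko label (difference in log2 ratio -0.20, exact two-sided permutation p = 0.5, adjusted p = 0.667). That difference was -0.35 without wt 1 and -0.0054 without wt 2. Per length, Pvr was at 62.0 FPKM in wt where Nectin2 was at 1.02 FPKM, so most RNA for the nectin pair was Pvr.

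On the receptor side, 10 of 11 genes for receptors and partners of the 9 ligands were tested. None passed, 3 were higher at an unadjusted p under 0.05, and 9 had a positive estimate, with a median log2 fold change of 1.12 against 0.02 over all tested genes. At that unadjusted p, 958 of all 13884 tested genes were higher. Tigit, the inhibitory receptor for CD155 and CD112, was at 3.60, 4.76 and 9.68 CPM in wt and at 12.7, 32.0 and 9.85 CPM under the ko label, groups that did not overlap by a narrow margin (log2 fold change 1.59, SE 0.53, adjusted p = 0.328). Cd96, another CD155 receptor of T and NK cells, was at 1.01, 1.66 and 4.54 against 4.96, 11.1 and 4.40 CPM (log2 fold change 1.50, adjusted p = 0.328). Library ko 2 was highest for both, and it also had the highest T cell marker sum (367 CPM). Selplg, which encodes PSGL-1, a VISTA partner carried by leukocytes, had the highest CPM of the list, at 443, 289 and 300 against 243, 195 and 301 CPM, with the one negative estimate (log2 fold change -0.48, adjusted p = 0.331). The part of T cell number in these values was not tested.

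Of 18 other ligands and surface partners for T cells, 17 were measured and 13 tested. None passed, 6 were lower and 0 higher at an unadjusted p under 0.05, and 10 of 13 estimates were negative, with a median of -0.41. Of all 13884 tested genes, 1154 were lower and 958 higher at that unadjusted p. Cd48, the ligand of CD2 and CD244, was at 103, 77.9 and 85.5 CPM in wt and at 62.8, 50.5 and 75.2 CPM under the ko label, without overlap (log2 fold change -0.50, adjusted p = 0.328). Fgl2, whose secreted form inhibits T cells, was at 260.3, 266 and 249.8 against 181, 156 and 232 CPM, again without overlap (log2 fold change -0.45, adjusted p = 0.328). Cd47, the "do not eat me" signal with the highest CPM of the list, was at 289, 305 and 292 against 261, 219 and 288 CPM, without overlap (log2 fold change -0.21, adjusted p = 0.404). These 3 were again lowest in ko 2, the library with the lowest macrophage sum.

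The 13 genes known to induce or stabilize PD-L1 were all tested. None passed, 1 was higher and 4 lower at an unadjusted p under 0.05, and the median log2 fold change was -0.08. Over all 13884 tested genes, 958 were higher and 1154 lower at that unadjusted p. Irf1, the interferon-induced factor that acts on the Cd274 promoter, was at 300.1, 286 and 226 CPM in wt and at 394, 412 and 375 CPM under the ko label, without overlap (log2 fold change 0.54, SE 0.14, adjusted p = 0.328). Hif1a, the hypoxia-induced factor with the highest CPM of the list, was at 514, 832 and 899 against 746, 694 and 893 CPM (log2 fold change 0.05, adjusted p = 0.898).

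The genes whose log2 CPM followed Cd274 most closely over the 6 libraries were Ik (Pearson r 0.990), Kpna2 (0.988) and Tent2 (0.987), and 63 of 13883 genes were over 0.95. For Cd86 they were Dpf1 (0.996), Canx (0.991) and Ccl3 (0.989), with 40 genes over 0.95. Dpf1 was at or under 0.602 CPM in every library, so its likeness rests on few counts. These values describe 6 libraries that share their depth, their group and, for both genes, a low value in wt 1. Among the ligands, Cd80 and Cd86 had an r of 0.91, Cd274 and Cd86 one of 0.89, and Pdcd1lg2 and Cd276 one of -0.95.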

How the data were processed

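Gene-level RNA-seq of 3 wt and 3 ko-labelled libraries was used. The counts are raw and whole, as the authors deposited them, 1 per gene and library. The FPKM values beside them were computed by the authors with their own gene lengths. The aligner and counter are not given in the sources used here; the submitters' processing notes name mm10, which is GRCm38. The methods describe a low-input library from sorted cells, while the labels describe a small-RNA protocol on tumor tissue, and the sources do not reconcile them. Counts were filtered with filterByExpr, scaled by TMM and tested with edgeR 4.0.16 (quasi-likelihood, Benjamini-Hochberg over 13884 genes) under R 4.3.3, and DESeq2 1.42.0 and limma 3.58.1 on log2(FPKM + 1) or log2(FPKM + 0.1) were alternatives. The edgeR fit alone was tested on simulated counts, where 200 genes were changed 4-fold. It called 68.5% of them, and 14 genes that were not changed. Smaller changes, such as 0.527 of the wt level in Vsir, were not simulated, nor was a library set apart like wt 1. Ratios, FPKM shares of single genes and the mean log2 CPM of several marker lists were compared by exact permutation tests. The ratio p-values were adjusted with scipy 1.17.1.

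Named were the 9 ligands, Npm1, Ccrl2, the 3 genes nearest to Cd274 and to Cd86, cell markers beside a result and, from each of the 3 pathway lists (receptors, other ligands, PD-L1 inducers), the 2 genes of smallest p and the one of highest mean CPM. A gene that this rule names among the PD-L1 inducers is not reported here. The ligands and lists were chosen with earlier results of these data known. Marker lists were of macrophages, dendritic cells, T cells, B cells, neutrophils, fibroblasts, carcinoma or epithelial cells and endothelial cells. The labels do not say whether same-numbered wt and ko libraries are paired. Their deviations from the group means had correlations of -0.24, 0.06 and -0.34, and the numbers were not used as pairs in the main fit. Positions are from GENCODE M21 on GRCm38.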

Additional observations from a re-analysis of the deposited data

How the results depend on the processing

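No gene was called by edgeR under any scaling, filter or omitted library run, nor by limma on FPKM of the 6 libraries with either pseudocount, and DESeq2 called 36 genes on 6 libraries and 1283 without wt 1 and ko 3, the latter with 1 ligand, Vsir (log2 fold change -0.998). Vsir kept a negative estimate under all 17 alternatives, from -1.17 (without ko 3) to -0.72 (without wt 1) with 1 library left out; Icosl ranged from -0.59 to -0.36, Cd274 from 0.03 to 0.38, Cd80 from -0.18 to 0.20, Cd86 from -0.07 to 0.15, Nectin2 from -0.16 to 0.06, Pdcd1lg2 from -0.36 to -0.12, Pvr from -0.36 to -0.10 and Cd276 from 0.01 to 0.57. The labels do not say whether the numbers pair the libraries. With a replicate block 0 genes and 0 ligands were called, with Vsir at -0.94 and Icosl at -0.49.

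Signs turned as follows. Scaled to macrophage markers, Pdcd1lg2 was 0.30, Pvr 0.25, Nectin2 0.51 and Icosl 0.027. Without wt 1, Cd80 was -0.12, Cd86 -0.07 and Nectin2 0.05; without ko 3, they were -0.18, -0.01 and 0.06. Without both, edgeR and DESeq2 gave -0.11 and -0.14 for Cd274, -0.33 and -0.37 for Cd80, -0.14 and -0.18 for Cd86, and 0.16 and 0.12 for Nectin2. limma gave Nectin2 0.055 on log2(FPKM + 1) and 0.091 on log2(FPKM + 0.1), the latter with the median of all genes at 0.16. The log2 ratio of Cd80 to Cd86 was 0.065 without ko 2 and at its lowest, -0.20, without wt 1 and ko 3. The cause of these turns was not tested.

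Ligands without overlap numbered 2 in the 6 libraries, between 2 and 4 with 1 library left out (4 without ko 3: Pdcd1lg2, Vsir, Pvr and Icosl, all lower), 6 without wt 1 and ko 3, 3 on FPKM and 4 scaled to macrophage markers, beside 25.9%, 49.8% (without ko 3), 57.8%, 25.4% and 37% of all tested genes. Having 3 libraries a group limits the precision. Nectin2, Cd276 and Pdcd1lg2 had the lowest counts, with edgeR SEs of 0.25, 0.32 and 0.21, beside 0.25 for Vsir and 0.22 for Cd274.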
